A study of Homo sapiens with 4 samples.

Results

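The transcripts of 10 human genes for DNA topoisomerases and for the SMC complexes cohesin and condensin were examined for crosslinking to poly(PR), out of 20046 annotated protein-coding genes. The genes were taken by name: TOP1, TOP2A and TOP2B encode topoisomerases, SMC1A, SMC3 and RAD21 encode cohesin subunits, and SMC2, SMC4, NCAPD2 and NCAPG encode condensin subunits. All 10 names were found in the annotation and all 10 genes carried events. The 4 libraries belong to 1 condition, PR100-FLAG. In it, HEK293T cells, a transformed human embryonic kidney line, were transiently transfected with a plasmid for 100 proline-arginine repeats with a triple FLAG tag, kept for 24 h in 150 ng/ml doxycycline, and irradiated once with 160 mJ/cm2 of UV light at 254 nm. PR100 stands for the proline-arginine dipeptide repeat protein that is made from the expanded C9orf72 repeat in amyotrophic lateral sclerosis and frontotemporal dementia. Here it came from a plasmid in a dividing, non-neuronal line, without the repeat RNA itself. In iiCLIP, complexes are pulled down by the FLAG tag, and reverse transcription stops at the crosslinked peptide, so each unique cDNA marks 1 crosslinking event at 1 nucleotide. SDS-PAGE was used to purify the complexes of replicates 1, 2 and 3, and beads those of replicate 4. The FLAG-only, non-crosslinked and GA100 libraries were not used here, and every comparison is within this condition.

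Topoisomerases relieve the twisting of DNA: TOP1 cuts 1 strand at a time, whereas TOP2A and TOP2B pass a duplex through a break in another duplex. TOP2A is made by dividing cells, and TOP2B also by cells that have stopped dividing, such as neurons. Cohesin holds sister chromatids together and forms chromatin loops, and condensin compacts chromosomes for mitosis. Each is built on a pair of SMC proteins, long coiled-coil ATPases, which a kleisin such as RAD21 closes into a ring, and NCAPD2 and NCAPG are the HEAT-repeat subunits of condensin I. Several of these proteins have long stretches rich in glutamate and lysine, whose codons are rich in purines.

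The 4 libraries held between 125694 and 604816 events and 1244203 in all. Replicates 3 and 4, with 125694 and 179636 events, lay below the minimum of unique events that the paper set for each PR100 sample. The paper states that 4 samples met that minimum. The 10 genes held 2323 of them (0.187%), with 576, 1088, 152 and 507 events in replicates 1 to 4. Replicate 3, which had a random barcode of 5 nt in place of 7 nt, stood apart. Its 152 events lay on 44 positions, or 3.45 cDNAs per position, against 1.48, 1.52 and 1.04 in replicates 1, 2 and 4. A single gene had 2 to 8 positions in it, and a value of replicate 3 for 1 gene therefore rests on few sites. Neurofilament transcripts, which HEK293 cells are known to make, were present with 1426 events on NEFM, 165 on NEFL and 9 on INA. Of the markers of other tissues, the leukocyte gene PTPRC had 10 events, 1 of them exonic, the liver gene ALB and the muscle gene MYH7 had 2 each, none exonic, and the T cell, skin and erythroid genes CD3E, KRT5 and HBB had 0 events, which allows up to 2.41 CPM, the 3 counts that a count of 0 allows out of the pooled libraries. All intervals and limits given here cover counting error only.

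Since the position of crosslinking is the measurement, the sequence at the largest clusters is given first. The authors' list of significant clusters, called on the pooled libraries, placed 43 clusters on 9 of the 10 genes. Of all protein-coding genes, 11.3% carried at least 1 cluster, and of those with at least 50 pooled events 36.3% did. SMC4 had 14 clusters, SMC1A 10, TOP2A 9, TOP1 4 and TOP2B 2, while SMC3, RAD21, SMC2 and NCAPD2 had 1 each. NCAPG had none in the pooled list and 1 in the list of replicate 2. The clusters held 672 cDNAs, 28.9% of the events on these genes, and the position with the most cDNAs, the summit, lay in coding sequence in 40 of 43. Where positions tied for the most cDNAs, the one with the lowest genomic coordinate was taken. The largest clusters are shown for 30 nt from 5 nt upstream of its summit, read on the strand of the gene from GRCh38, with the summit at base 6 from the 5′ end. Capitals mark the motif GANGA, which stands for GAAGA or GAGGA or GACGA, searched on the transcript strand only, where overlapping matches were all kept. For SMC1A, 2 clusters tied at 20 cDNAs and both are shown.
TOP1 exon 7, chr20:41081184-41081213 (+), cluster of 34 cDNAs: aaaattaaaacaGAAGAtaccaagaaggag
TOP2A exon 28, chr17:40396411-40396440 (-), cluster of 24 cDNAs: atgaacaagtcggacttcctgggaaagggg
SMC1A exon 17, chrX:53396464-53396493 (-), cluster of 20 cDNAs: agaaactcgggggcgccaacaagtgagtgg
SMC1A exon 7, chrX:53411741-53411770 (-), cluster of 20 cDNAs: agagacagaggtgggctatagttataagat
SMC3 exon 24, chr10:110601747-110601776 (+), cluster of 14 cDNAs: actaaagaactggaaaagatgacaaatcgg
SMC2 exon 17, chr9:104123156-104123185 (+), cluster of 11 cDNAs: tttattacaaaccaagctccagcaaagctc
SMC4 exon 10, chr3:160416284-160416313 (+), cluster of 38 cDNAs: aacaatatcattaatgaaacaacaaccaga
NCAPD2 exon 10, chr12:6516969-6516998 (+), cluster of 11 cDNAs: aactcctttgtgcggagccgtgttttgcag

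The largest clusters of TOP2B and RAD21 are not shown. Of the windows that are, that of TOP1 held a GANGA motif. The windows of SMC3 and SMC4 were rich in A without it. Both SMC1A windows ran past an exon end, and their last 8 and 20 bases are intron. Among all 40 clusters with a coding summit, 11 (27.5%) held a GANGA motif in the window, against 19.6% of the windows laid in the same way at every coding position of the 10 genes. A cluster of TOP2A and one of SMC4 with more than 1 motif in the window are shown for comparison.
TOP2A exon 23, chr17:40400284-40400313 (-), cluster of 20 cDNAs: gtgaaatttgttgtGAAGAtgactGAAGAa
SMC4 exon 8, chr3:160413528-160413557 (+), cluster of 22 cDNAs: GAAGAtaccaaagaaattaatgaGAAGAgc

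The clusters were mostly shallow, and they leaned on replicate 2. In 35 of the 43 clusters no single position had more than 5 cDNAs, and the highest position had 9. Events of all 4 libraries were found in 8 clusters, and 29 clusters had none of replicate 3. The largest cluster, in SMC4, had 6, 20, 0 and 12 cDNAs in replicates 1 to 4, and the largest in TOP1 had 4, 12, 0 and 18. The cluster of RAD21, which lay in exon 12, had 18 cDNAs of replicate 2 and 4 of replicate 4 with none of the others. By contrast, 7 of the 11 cDNAs in the NCAPD2 cluster and 6 of the 11 in the SMC2 cluster came from replicate 3. Called in 1 library at a time, the lists gave 1, 19, 1 and 3 clusters on the 10 genes in replicates 1 to 4.

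By pooled events, SMC4 with 442 and SMC1A with 438 led the group, at ranks 90 and 94 of the 20046 protein-coding genes. TOP2A followed with 324 events and TOP1 with 250. These 4 genes reached the minimum of 200 pooled events that was set for high crosslinking, which 3.51% of protein-coding genes reached. The paper also set a limit on binding in the non-crosslinked and FLAG-only controls, which was not applied here. TOP1 was the member just inside the minimum of 200 events, and NCAPG, with 196 events, the one just outside. Without replicate 2, the largest library, 2 of the 10 genes reached it. TOP2B had 171 events, SMC3 146, SMC2 130 and NCAPD2 127, and RAD21 was lowest with 99 at rank 2408. The median of the 10 genes was 183.5 events and that of all protein-coding genes 15. No RNA abundance was measured here, so a strongly crosslinked transcript and a merely abundant one cannot be told apart.

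In CPM, the events scaled to the total of the library, SMC4, the ATPase that pairs with SMC2 in condensin, had 326, 342, 223 and 546 in replicates 1 to 4. SMC1A, which pairs with SMC3 in cohesin, had 317, 369, 191 and 473. In both genes replicate 3 was lowest and the beads library highest, and the means were 359 ± 135 CPM (SD, n = 4) and 338 ± 117 CPM (SD, n = 4). TOP2A had 228, 263, 87.5 and 434 CPM. TOP1 had 189, 177, 119 and 362 CPM. These topoisomerases, too, were lowest in replicate 3 and highest in the beads library. TOP2B, the paralogue of TOP2A, had a mean of 128 ± 59.1 CPM (SD, n = 4). SMC3 varied most for its size, from 15.9 CPM in replicate 3 to 228 CPM in the beads library, and the first of these values rests on 2 events. The condensin subunit NCAPG was the exception among the higher genes, since its highest value, 263 CPM, was in replicate 3, where 33 events lay on 7 positions. SMC2 and NCAPD2 had means of 107 ± 28.4 and 109 ± 35.3 CPM (SD, n = 4). RAD21, the kleisin of cohesin, had 80.8, 81.0, 79.6 and 72.4 CPM, the narrowest spread of the 10. These values rest on 27, 49, 10 and 13 events, and the 10 events of replicate 3 lay on 2 positions. With so few events, the narrow spread is no measure of precision.

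The beads library gave a higher CPM than each of the 3 SDS-PAGE libraries for 8 of the 10 genes, and for 4 of the 4 with at least 200 events. Among protein-coding genes with at least 50 pooled events, a minimum that all 10 genes pass, 31.3% were highest in the beads library, and among those with at least 200 events 43.4%. RAD21 and NCAPG were the genes not highest there. The ratio of the beads library to the mean of the SDS-PAGE libraries ran from 0.899 for RAD21 to 2.78 for SMC3, with a median of 1.77. In the beads library these events also had the fewest cDNAs per position, 1.04, and the highest coding share, given below. With 1 library purified with beads, the purification and the library cannot be told apart, and no test was made.

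Per length of coding sequence, the order of the genes was SMC1A (61.8 ± 27.7 coding CPM per kb, SD, n = 4), SMC4 (59.4 ± 35.1), TOP1 (52.9 ± 40.7), TOP2A (48.2 ± 27.2), NCAPG (36.2 ± 20.8), SMC3 (26.6 ± 25.5), RAD21 (22.9 ± 1.48), SMC2 (18.5 ± 6.47), TOP2B (16.9 ± 10.9) and NCAPD2 (14.6 ± 4.67). No gene differed from its neighbour in this order beyond the spread between libraries, since in all 9 neighbouring pairs at least 1 library had the opposite order. Some partner genes lay further apart, while others, such as SMC3 and RAD21, were neighbours. SMC4 lay above its partner SMC2 in 4 of 4 libraries, by 2.84-fold on average (log2 1.50 ± 0.53, SD, n = 4). SMC1A lay above its partner SMC3 in 4 of 4 libraries, by 3.27-fold (log2 1.71 ± 1.06), and above RAD21 by 2.38-fold in 4 of 4. The ratio of SMC1A to SMC3 was log2 3.13 in replicate 3, where SMC3 had 1 coding event, and log2 0.58 in the beads library. Without replicate 3 its mean was log2 1.24. TOP2A lay above TOP2B in 4 of 4 libraries, by 2.95-fold (log2 1.56 ± 0.37), and NCAPG above NCAPD2 by 2.22-fold. Each of these 5 comparisons had p = 0.13 in an exact two-sided sign-flip permutation test, the smallest p that 4 libraries allow, so none could pass 0.05. In all, 14 pairs were compared.

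The events fell mainly on coding sequence. Of the 2323 events, 1533 (66.0%) lay in coding sequence, 172 (7.40%) in 3′ UTRs, 81 (3.49%) in 5′ UTRs, 49 (2.11%) in other exons and 488 (21.0%) in introns. In the 703 protein-coding genes with at least 200 events, coding sequence held 34.0% and introns 52.5%. The coding share was above this 34.0% in 10 of 10 genes, from 51.2% in TOP1 to 84.6% in TOP2A. Their median was 64.0%, against 25.7% for the 703 genes. Of the 703 genes, 72.8% had a lower coding share than TOP1 and 96.3% a lower one than TOP2A. How many of the 703 lay above 34.0% was not counted, and only 4 of the 10 genes reach their minimum of 200 events. By library, the coding share of the 10 genes together was 57.5%, 66.3%, 56.6% and 77.9% in replicates 1 to 4, and that of the 703 genes was 22.6%, 36.8%, 28.3% and 47.8%, and in both sets the beads library was highest.

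For each gene, the density of events per nt was compared between coding sequence and introns. It was higher in coding sequence in 4 of 4 libraries for 10 of 10 genes. The same held for 86.8% of the 5142 protein-coding genes with at least 50 events and an intron, so the count itself does not set these genes apart. The mean log2 ratio ran from 3.56 ± 0.90 (SD, n = 4) for NCAPD2, or 11.8-fold, to 6.13 ± 0.58 for TOP2A, or 70.2-fold. The median of the 10 genes was 5.00 and that of all genes tested 3.61. In the exact two-sided sign-flip test each gene had p = 0.13, and 0.144 after Benjamini-Hochberg adjustment over all genes tested.

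The genes differed in what they carried outside coding sequence. TOP2A, the mitotic type II enzyme, had 274 of its 324 events in coding sequence. Of its 23 intronic events 20 lay within 100 nt of an exon, with 2, 14, 0 and 4 in replicates 1 to 4. This zone makes up 25.5% of the intron length of TOP2A. In the other 9 genes 63 of 465 intronic events lay in this zone. NCAPG had 3 of 77 there, against 13.8% of intron length. TOP1, NCAPG and NCAPD2 had the largest intronic shares, 34.4%, 39.3% and 40.2%. In NCAPD2, 16 of the events fell on SCARNA10, a small Cajal body RNA gene inside it, of which 10 were also inside an unnamed long non-coding RNA gene, and these reads cannot be assigned to NCAPD2 alone. In TOP1 the 86 intronic events were spread over introns of 85539 nt in all, or 1.01 events per kb.

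The UTRs carried much of the signal in a few genes. RAD21 had 24 of 99 events (24.2%) and SMC2 had 25 of 130 (19.2%) in the 3′ UTR. SMC1A had 50 events in its 3′ UTR, but on 5957 nt, so that the density there was 8.39 events per kb against 81.5 in its coding sequence. TOP2B and SMC3 had 1 and 2 events in the 3′ UTR. The 5′ UTR of TOP2B held 18 events (10.5%), at 29.4 events per kb against 22.9 in its coding sequence, and 11 of the 18 came from replicate 1. The 5′ UTR of NCAPG held 9 events on 99 nt, all of replicate 2. SMC4 had 28 events in 5′ UTR sequence, found in every library with 9, 15, 2 and 2 events in replicates 1 to 4.

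Along the coding sequence of the canonical transcript, divided into 10 bins of equal length, the events were uneven, and the genes had different profiles. In TOP1, 73.4% of 128 coding events lay before the midpoint, with 23, 33 and 20 events in bins 1, 2 and 3. Bin 2 of TOP1 held 3 of 25, 11 of 47, 0 of 9 and 19 of 47 events in replicates 1 to 4, and the 9 events of replicate 3 were all at 1 position elsewhere. This part of the gene encodes the charged amino-terminal region of the enzyme. TOP2A and TOP2B had more of their events towards the other end. In TOP2A these were in bins 8 and 9, with 38 and 53 events, whereas bin 10 held 16 and bin 1 held 32. The last of 3 equal parts of the coding sequence held 118 of 274 events (43.1%) in TOP2A and 58 of 112 (51.8%) in TOP2B, and encodes the carboxy-terminal region, in which the paralogues differ most. In TOP2A this was 25 of 67, 60 of 126, 0 of 11 and 33 of 70 events in replicates 1 to 4. In TOP2B it was 8 of 19, 37 of 64, 3 of 3 and 10 of 26.

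Among the cohesin genes, RAD21 was the most concentrated, with 25 of its 54 coding events (46.3%) in bin 9. Of these, 18 were among the 28 of replicate 2 and 5 among the 8 of replicate 4, whereas replicate 1 had 2 of 13 and replicate 3 none of 5. SMC3 had 30 of 115 events in bin 8, with 8 of 24, 14 of 49, 1 of 1 and 7 of 41 in replicates 1 to 4. SMC1A had a maximum of 64 of 303 events in bin 3 and a lower one of 42 in bin 7. The SMC proteins fold back on themselves, so that the arms are encoded on either side of the hinge in the middle. In SMC4 bin 4 was highest, with 52 of 287 events, and in SMC2 bin 7, with 19 of 81, of which 6 stood at 1 position in replicate 3. NCAPG had the least marked maximum, with 16 of 107 events in its highest bin, bin 6. At least 1 event was found on 5.38% of the coding positions of SMC1A and on 1.05% of those of NCAPD2, so most positions were not sampled at this depth.

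The GANGA motif was then examined. The paper found GAAGA enriched at crosslinking sites of this same PR100 dataset, and then tested its binding in vitro. An excess of events near the motif in these libraries is therefore no independent support for it. The coding sequences of the 10 genes held 7.76 (SMC4) to 15.8 (RAD21) GANGA motifs per kb. Their median was 10.3, against a median of 6.14 in 19287 coding sequences of at least 300 nt. All 10 genes lay above that median, but SMC4, the lowest, was only at percentile 66.6. TOP1, with 36 motifs on 2295 nt, and RAD21, with 30 on 1893 nt, were the densest. The median purine content of the 10 genes was 58.6%, against 52.0%, and NCAPD2, at 51.8%, was not above the latter. Over the 10 genes, motifs per kb and coding events per kb were unrelated in rank (Spearman's rho = 0.006, n = 10 genes, which share the libraries), as SMC4 had the lowest motif density and the second highest density of events.

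An event was counted as near a motif when one started from 5 nt upstream to 30 nt downstream of it, and the share was set against that of all coding positions of the same gene. Of the 1528 events in the canonical coding sequences 569 (37.2%) were near a motif, against 27.5% of the positions. With the libraries pooled, the difference was above 0 in 10 of 10 genes, as it was in 74.8% of the 802 genes with at least 50 coding events and 1 in each library, a filter that all 10 genes pass. The median was 9.46 percentage points in the 10 genes and 5.86 in the 802. As a mean over libraries the difference was above 0 in 8 of 10 genes (64.8% of the 802), and TOP1 and SMC1A had means of -1.28 and -0.9998 percentage points. In 4 of 4 libraries it was above 0 for TOP2A alone (17.8% of the 802). Replicate 3 had the coding events of 5 genes at 1 position each. In replicates 1, 2 and 4 the difference was above 0 in each library for 4 genes, TOP2A, SMC1A, SMC2 and NCAPD2 (38.8% of the 802). Without replicate 3 the mean was above 0 for 10 of 10, but the share of the 802 for this count was not taken. The other counts are close to the background, and no member passed the exact sign-flip test, in which TOP2A had p = 0.13 and an adjusted p of 0.573 over the 802 genes.

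RAD21 had the largest pooled difference. Of its 54 coding events 39 (72.2%, Wilson 95% interval 59.1 to 82.4) were near a motif, against 35.4% of its coding positions. By library these were 4 of 13, 25 of 28, 5 of 5 and 5 of 8 events, so replicate 1 did not share the pattern. The cluster in bin 9 of the coding sequence held 22 events, and its window held 3 motifs. TOP2A, next, had 24 of 67, 43 of 126, 9 of 11 and 28 of 70 events near a motif, against 22.7% of positions. Its mean difference was 25.2 ± 22.7 percentage points (SD, n = 4), and 11.4 to 17.3 in replicates 1, 2 and 4. SMC4, with the most events, had the smallest pooled difference, 2.21 percentage points: 13 of 63 and 30 of 139 events of replicates 1 and 2 were below the 26.0% of its positions, and 8 of 11 and 30 of 74 events of replicates 3 and 4 were above. In the SMC4 cluster with the most cDNAs no motif was present in the window shown above, and in that of exon 8 there were 2.

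The motif covered the bases downstream of the crosslinked position more often than the position itself. With the libraries pooled, a GANGA motif covered 7.59% of the bases from 1 to 30 nt downstream of coding events, against 4.86% around all coding positions. From 31 to 50 nt downstream it was as high, 7.75% against 4.88%. From 30 to 1 nt upstream it was 5.28% against 4.81%, from 31 to 50 nt upstream 6.08% against 4.74%, and at the crosslinked position 3.21% against 4.84%. Downstream the share was 6.84%, 7.58%, 6.59% and 8.45% in replicates 1 to 4, each above 4.86%. The crosslinked position was below the share of all positions in 4 of 4 libraries, with 3.34%, 4.59%, 1.16% and 1.02%. The highest pooled share, 9.75%, was 27 nt downstream, where the share of replicates 1 to 4 was 8.51%, 8.90%, 3.49% and 13.7%, so that the beads library was highest and replicate 3 was below the 4.87% of all positions. The crosslinked nucleotide was U in 30.1% of pooled coding events, against 23.6% of coding positions, and in 25.5%, 29.2%, 57.0% and 29.7% of those of replicates 1 to 4. It was G in 17.7%, against 23.6% of coding positions. As GANGA holds no U, a U at the crosslinked position goes with the absence of the motif there, and its part in the dip was not tested.

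Other genes of the same complexes were crosslinked to varying extents. Of 28 further topoisomerase, cohesin, condensin and SMC5/6 genes, 4 had at least 200 pooled events. STAG2, a cohesin subunit that binds RAD21, had 421 events, with 356, 382, 231 and 234 CPM in replicates 1 to 4, and 34.2% of them in coding sequence. NCAPD3, the condensin II counterpart of NCAPD2, had 300 events at 240 ± 76.6 CPM (SD, n = 4), 51.3% of them coding. NIPBL, which loads cohesin on DNA, had 236, at 190 ± 1.44 CPM (SD, n = 4). Its partner MAU2 had 211 events, of which 143 were intronic and 19 coding. The highest of the other topoisomerases was TOP3A with 178 events, 62.9% of them coding, and the highest in the SMC5/6 group was the SMC relative SMCHD1 with 178. The meiotic gene SMC1B and NSMCE3 had 0 events, which allows up to 2.41 CPM each. The median of the 28 genes was 120 events.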

How the data were processed

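Multiplexed iiCLIP libraries of PR100-FLAG were processed by the authors with iMaps: PCR copies were collapsed by random barcode, reads were mapped with STAR to GRCh38 with Gencode 27 (2 mismatches allowed, version not given in the sources used here), and uniquely mapping reads were kept. The deposited values are counts of unique cDNAs per crosslinked position and strand, with no normalisation, and counts per significant cluster (iCount, false discovery rate 0.05), for each library and pooled. The distance over which positions were joined into clusters is not given in the sources used here. A barcode of 5 nt tells apart fewer copies than one of 7 nt, and reads of repeated sequence are lost by unique mapping.

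From these counts, events were placed on the strand of each gene with GENCODE 44, and coding sequence took precedence over 3′ UTR, then 5′ UTR, other exon and intron of the same gene. CPM used the total of each library, whose depth of 125694 to 604816 events leaves most genes with few events per library. Density ratios had 0.5 events added per region. Differences over libraries were tested by exact sign-flip permutation, two-sided, adjusted over all genes tested and not over the 10 genes. Since nothing states that the libraries are separate cultures, p-values cover the spread between libraries only. No pair of libraries agreed within sampling noise (chi-square per degree of freedom 6.18 to 12.2). The members and lists were chosen with earlier results of these data known. Named genes were the 10 members, related genes with at least 200 events and otherwise the highest of each group, and the largest cluster of each member, of which those of TOP2B and RAD21 are not reported here by sequence. Intronic edges, inner genes, UTR details and the clusters with 2 or more motifs were chosen after their values were seen. Alternatives changed the minimum, the annotation, the counting of positions, the motif window and the libraries included, and those on the crosslinked nucleotide, pooling, the beads count and the partner pairs were added after seeing the data. The ratio and motif statistics were tested on simulated data in which events were drawn independently. Those data lacked the stacking of cDNAs on shared positions and the excess spread between libraries, so the simulation does not cover either. In addition, 40 gene counts were recounted with bedtools 2.31.1 with 0 differences. The tools were numpy 2.4.6, scipy 1.17.1, pandas 2.3.3 and matplotlib 3.10.9 under Python 3.11.15.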

Additional observations from a re-analysis of the deposited data

Results flagged for a closer look

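Of 40 sets of 4 library values on the 10 genes (CPM, coding share, density ratio and motif difference), 5 had 1 library far from the other 3 by Dixon's criterion, and chance gives about 1 in 20. NCAPD2 had 161 CPM in the beads library, against 87.5 to 92.8 in the SDS-PAGE libraries. RAD21 had 72.4 CPM in the beads library, against 79.6 to 81.0 in the others, a small step that stands out because these 3 lay so close. The beads value rests on 13 events. The other 3 sets had replicate 3 as the distant library. The log2 ratio of coding to intronic density of RAD21 was 2.91 there, against 5.29 to 5.55 in the others. The motif difference of TOP2A was 59.1 percentage points there, against 11.4 to 17.3, and rests on 11 coding events at 4 positions. That of SMC2 was -30.2 percentage points, against 14.8 to 19.8, and rests on 6 events at 1 position.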

How the results depend on the processing

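The log2 density ratios of the 10 genes kept their direction under each of 7 alternatives. SMC4 over SMC2, SMC1A over SMC3 and TOP2A over TOP2B did so under each of 5, and the other 2 partner pairs were not recomputed. The coding shares of the 10 genes moved by less than 1 SD under each of 6. With a minimum of 100 or 400 events in place of 200, 9 or 2 of the genes reached it, and 2 to 4 did when a library was left out. Of the 43 pooled clusters 10 held at least 20 cDNAs, and the lists of single libraries held 1, 19, 1 and 3. The motif differences were the least stable, with 16 of 100 reversed. The number above 0 in every library was 1, and became 4 with the motif from 30 nt upstream to 30 nt downstream, 2 with each position counted once and 1 to 4 when a library was left out, where fewer libraries have to pass. With the wide motif window the median over the genes was 18.98 percentage points in place of 5.13, and with the expected share weighted to the crosslinked nucleotide 6.23. The mean of TOP1 turned from -1.28 to 1.73 with the motif from 0 to 30 nt downstream, 4.39 with GAAGA alone, 1.81 with positions counted once, 9.96 with the libraries pooled and -9.45 to 11.1 when a library was left out. That of SMC1A turned from -0.9998 to 6.18 with the wide window, 1.16 with GAAGA alone, 6.50 with positions counted once, 3.82 with the libraries pooled and -6.77 to 7.59 when a library was left out. TOP2B turned from 0.21 to -1.40 with positions counted once, and ran from -5.36 to 9.74 when a library was left out, as NCAPD2 did from -3.77 to 8.14. NCAPG turned to -0.93 with GAAGA alone. Apart from fewer libraries, the cause was not tested. In the beads library, 10 of 10 genes were highest with each position counted once. The share of all protein-coding genes under this counting was not taken, so the count has no background beside it. Over all its events the beads library had 1.15 cDNAs per position, against 1.47, 1.67 and 2.16 in replicates 1 to 3. No paired analysis was possible because all libraries belong to 1 group, so replicate numbers could not pair samples across groups, and the comparisons tested here are within a library. Replicate 3 limits every value of a single gene, since its 152 events lay on 44 positions.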
